A study of Homo sapiens with 4 samples.

Results

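The secreted cytokines, chemokines and colony-stimulating factors examined here were 41 genes, chosen by symbol from the 63677 genes of the deposited table, and all 41 were found. Where a symbol had several rows, as CCL5 and CCL26 did, the row with the highest mean was kept. RNA was sequenced from MDA-MB-231, an established line of human triple-negative breast cancer cells, a class without oestrogen receptor, progesterone receptor or HER2 amplification. The cells received either a control siRNA (siCt, 2 libraries) or a commercial pool of siRNAs that targets AXL (siAXL, 2 libraries), and AXL encodes one of the TAM receptor tyrosine kinases. Both groups were the same cell line, carried no other labelled treatment and differed in the siRNA. The comparison set 1 pool against a control siRNA. An effect of AXL loss therefore cannot be told apart from effects of the pool or of the control on other transcripts.

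AXL itself was read at 29189 and 30617 normalized counts in the siCt libraries and at 8658 and 7141 in the siAXL libraries, which left 26.4% of the siCt mean. A normalized count is the number of reads on a gene divided by the size factor of its library, so that libraries of different depth can be compared. The libraries held 39574387 to 44585773 reads. Of 9 genes used to check the cell line, the mesenchymal markers VIM and CD44 were at 86751 to 99296 and 33968 to 36518 normalized counts, and ZEB1 at 3075 to 3697. The mesenchymal cadherin CDH2 was at 75.8 normalized counts or less and was called lower in siAXL, a call lost without siAXL 1 (limma adjusted p = 0.159) and with DESeq2 (0.0934). Of the epithelial markers, EPCAM was at 565 to 771, and CDH1, at 22.6 to 94.3, was called lower (log2 difference -1.64). ERBB2 was at 2949 to 3680 and was called higher (log2 difference 0.26), a call lost without siCt 2 (adjusted p = 0.0763), siAXL 1 (0.143) or siAXL 2 (0.0700). The oestrogen and progesterone receptor genes ESR1 and PGR had at most 3 reads in any library. Of 15 marker genes of immune, endothelial and stromal cells, 7 passed the filter on low counts and 1 was called, PDGFRB, higher in siAXL. MS4A1 and PECAM1 were at 0 reads. PDGFRB was at 294 and 307 normalized counts in siCt and at 456 and 420 in siAXL. Among the 7 tested, 5 had a positive log2 difference and 2, LYZ and LUM, a negative one. The summed level of the 15, much of it PDGFRB, was 527 and 581 normalized counts in siCt against 734 and 747 in siAXL. The part of that difference in the results below was not tested.

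Cytokines are small secreted proteins by which cells signal to one another, chemokines are the subset that steer cell migration, and colony-stimulating factors drive the growth of blood cells of the myeloid line. Many of their genes are switched on by the transcription factor NF-kB, and many of their messages are short-lived because AU-rich elements in the 3′ UTR recruit proteins that start mRNA decay. Breast cancer cells of the mesenchymal type are known to secrete several of them, among them IL-6, IL-8 and GM-CSF.

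Stretches of the promoters of 6 CXC chemokine genes are shown first, because neighbouring genes of this family on chromosome 4 gave very unlike differences between the groups. RefSeq promoters (build GRCh38.p14, 300 bases a window) were at hand for 29 of the 41 members, 7 of which had 2 or 3 windows, making 38 in all. The lines below give the 90 bases from 120 to 31 bases before the transcription start, read 5′ to 3′ on the gene's strand, with matches to the NF-kB consensus on either strand in capitals.
CXCL8 (IL8), chr4:73740449-73740538, plus strand: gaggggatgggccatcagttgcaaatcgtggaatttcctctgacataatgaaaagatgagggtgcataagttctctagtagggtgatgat
CXCL1, chr4:73869273-73869362, plus strand: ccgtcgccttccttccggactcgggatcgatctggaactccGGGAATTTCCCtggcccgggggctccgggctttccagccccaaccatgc
CXCL5, chr4:73998708-73998797, minus strand: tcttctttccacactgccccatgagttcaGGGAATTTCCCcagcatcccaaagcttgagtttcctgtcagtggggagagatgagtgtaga
CXCL3, chr4:74038720-74038809, minus strand: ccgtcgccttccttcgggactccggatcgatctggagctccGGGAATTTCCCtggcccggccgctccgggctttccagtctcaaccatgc
CXCL2, chr4:74099226-74099315, minus strand: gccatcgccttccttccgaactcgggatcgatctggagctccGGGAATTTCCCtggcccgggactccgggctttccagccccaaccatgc
CXCL11, chr4:76036101-76036190, minus strand: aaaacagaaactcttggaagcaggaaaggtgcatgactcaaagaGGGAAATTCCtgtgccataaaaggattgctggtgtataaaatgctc
CXCL1, CXCL2, CXCL3 and CXCL5 carry the same run of 11 capitals, in which matches on the 2 strands overlap. The CXCL8 window has no match to the consensus but holds GGAATTTCC, a word that also lies inside the capitals of the others on one strand or the other.

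Of the 41 members, 32 had enough reads to be tested. The test was limma on log2(normalized count + 1), with calls made at an adjusted p under 0.05 (Benjamini-Hochberg, over all 16064 genes tested). After AXL siRNA 11 members fell and 4 rose. The members that fell were CSF2, CSF3, KITLG, IL6, LIF, CXCL2, CXCL3, CXCL5, CXCL16, CCL26 and IL23A, and those that rose were CXCL11, CX3CL1, IL32 and MIF. The share of tested members called lower was 34.4%, beside 7.91% of all genes tested, and the share called higher was 12.5%, beside 10.8%. The members were chosen with earlier results of these data known, so these shares describe the list and are not a test of it. The same holds for the pathway lists below. The siAXL pair lay entirely below the siCt pair for 17 tested members, entirely above it for 6, and overlapped it for 9, where 30.5% of all tested genes lay below and 30.6% above. The median log2 difference over the 32 members was -0.18, beside -0.0022 over all genes tested. CXCL5 and IL1RN passed the filter only through their siCt reads, so they had to be lower. IL1RN was not called, and beside CXCL5, 10 of the other 31 tested members were called lower.

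Some calls changed when a library was left out and when every gene with at least 1 read was tested. CSF2, CSF3, CXCL2, CXCL3 and CCL26 were called lower, and IL32 higher, under all 12 alternative fits, while the other 9 called members missed the threshold under at least 1 of them. Without siAXL 1 the number of members called lower was 6, without siAXL 2 the number called higher was 1, and with every gene of at least 1 read tested the numbers were 5 lower and 2 higher. A fit without 1 library leaves 1 library in its group. Its spread then comes from the other pair and from all genes, and its adjusted p can be smaller than with every library. Calls gained or lost there therefore say little about a gene's own spread. Nothing states that the libraries came from separate cultures, so the p-values measure the spread between these samples, which may be technical. For a single gene the smallest two-sided exact permutation p with 2 libraries against 2 is 0.333, so a permutation test cannot call any gene. The limma calls rest on a model of spread across genes.

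**Figure D1:**
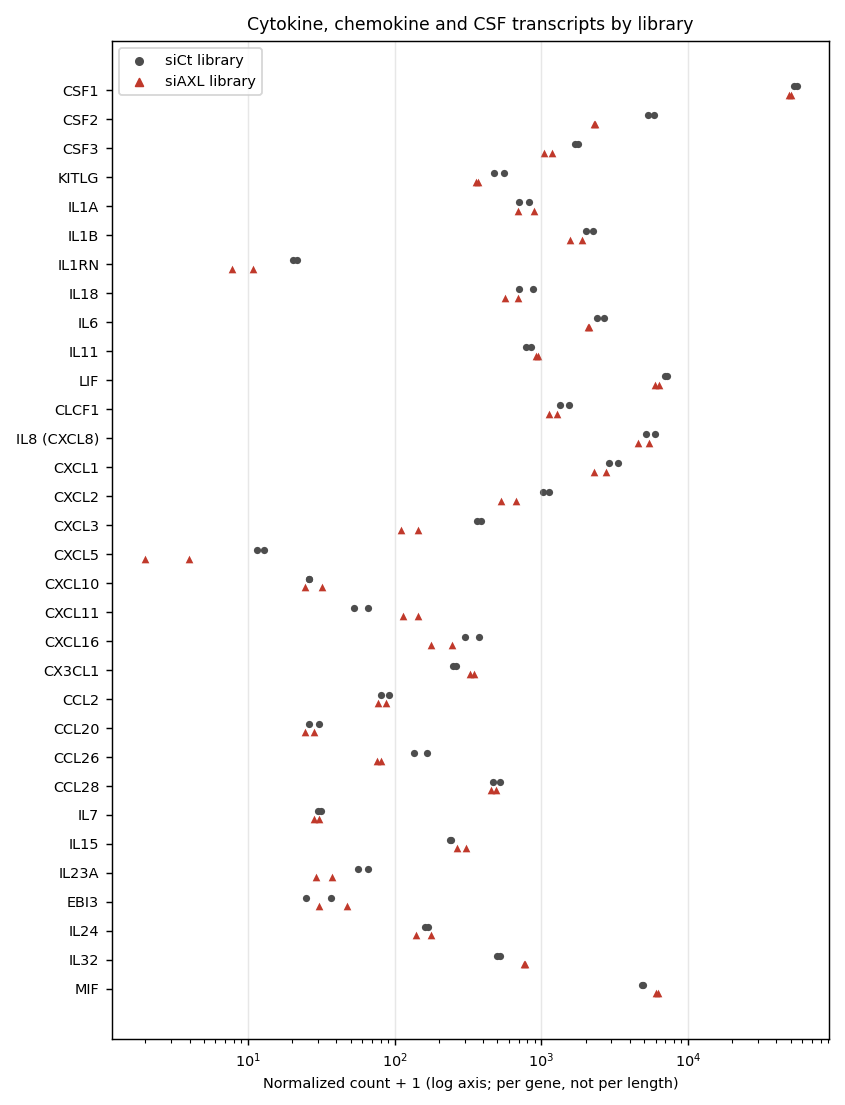
Normalized counts plus 1 (log axis, not divided by gene length) of the 32 tested members in the 2 siCt libraries (grey circles) and the 2 siAXL libraries (red triangles), ordered by role from colony-stimulating factors at the top to IL32 and MIF at the bottom. The siAXL triangles of CSF2, CXCL2 and CXCL3 lie clear to the left of the circles, those of CXCL11 and IL32 clear to the right, and those of IL1A, IL8 and CCL2 overlap the circles.

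CSF1 and CSF2 were the highest members per length, and CSF2 fell the most of the 6 highest. Per kilobase of exon CSF1, the growth factor of macrophages, was read at 9551 normalized counts and ranked 89 of 19635 protein-coding genes. CSF2, which encodes GM-CSF, ranked 231 with 5018 per kilobase. MIF followed at 4959 per kilobase, IL8 at 2315, CXCL1 at 2171 and LIF at 1662.

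CSF2 was read at 5357 and 5823 normalized counts in the siCt libraries and at 2333 and 2285 in the siAXL libraries. Both siAXL libraries were well below both siCt libraries, and the siAXL mean was 41.3% of the siCt mean. The log2 difference was -1.27 (SE 0.062, adjusted p = 5.85e-04), and it stayed between -1.33 and -1.21 when any 1 library was left out. CSF3, which encodes G-CSF and drives the growth of neutrophils, was at 1774 and 1700 in siCt and at 1032 and 1174 in siAXL. The groups did not overlap and CSF3 fell by 0.66 on the log2 scale (SE 0.081, adjusted p = 0.00384). CSF1 stood at 52979 and 55012 in siCt and at 50051 and 48951 in siAXL. Its siAXL libraries were lower, but the log2 difference of -0.13 (SE 0.060, adjusted p = 0.191) did not pass the test. Within a library, CSF2 had 10.1 and 10.6 reads per 100 reads of CSF1 in siCt and 4.66 and 4.67 in siAXL, so the balance between these messages shifted alike in both siAXL libraries.

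KITLG encodes stem cell factor, the ligand of the receptor KIT. Its values were 474 and 557 in siCt and 359 and 370 in siAXL, without overlap. The log2 difference was -0.49 (SE 0.11, adjusted p = 0.0225). The call was lost without siCt 2 (adjusted p = 0.0543), without siAXL 1 (0.0757) or without siAXL 2 (0.0561). IL34, the second ligand of the CSF1 receptor, had 4, 10, 5 and 5 reads in siCt 1, siCt 2, siAXL 1 and siAXL 2 and was not tested.

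The CSF2 message carries a dense AU-rich element, the feature for which this gene's decay is best known. In GENCODE 29 its 3′ UTR is 318 bases long and holds 8 copies of the pentamer ATTTA, 5 of them overlapping in the 30 bases at positions 220 to 249, shown with the pentamer run in capitals.
CSF2 3′ UTR: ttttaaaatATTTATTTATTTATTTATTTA
The longer word TTATTTATT, often used to define such elements, was present in the 3′ UTR of 12 of the 32 tested members (37.5%) and of 9.35% of the 12979 tested genes with a 3′ UTR. It was found in 5 of the 11 members that fell, in 1 of the 4 that rose and in 6 of the 17 that were not called. Over all tested genes the median log2 difference was -0.032 with the word and 0.0044 without it. CSF2 has 3 copies, CXCL2 has 5 and IL11 has 6, and these genes gave log2 differences of -1.27, -0.86 and 0.20.

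Of the 4 tested members of the interleukin-1 family, 0 were called in the main limma fit, beside 10.8% higher and 7.91% lower of all genes tested. edgeR also called 0, and so did DESeq2, which gave IL1RN no adjusted p. At an unadjusted p under 0.05, 3 were lower with limma and 2 with each of the others. With a replicate block in limma, which raised the calls over all genes too, IL1B (adjusted p = 1.37e-06), IL18 (5.55e-05) and IL1RN (0.0119) were called lower. IL1B, the secreted form cut by caspase-1, had a log2 difference of -0.30 (adjusted p = 0.0877), with both siAXL libraries below both siCt libraries. The IL1B log2 difference ran from -0.44 to -0.16 when any 1 library was left out. IL18, another substrate of caspase-1, was at -0.33 (adjusted p = 0.139), and from -0.49 to -0.17 when any 1 library was left out. IL1A, the form that can act from the membrane or be released by dying cells, was at 0.057 (adjusted p = 0.811), with overlapping libraries.

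IL1RN, the secreted antagonist of the interleukin-1 receptor, had 20 and 19 reads in siCt against 7 and 10 in siAXL. It passed the filter only through its siCt reads, so it had to be lower. Its siAXL libraries were lower, at 0.419 of the siCt level (95% counting interval 0.222 to 0.757), and the log2 difference of -1.18 (adjusted p = 0.0534) missed the threshold, which it passed under library-size scaling (0.0475). IL33, a nuclear alarmin, was not tested. It had 4 and 5 reads in siCt and 0 and 1 in siAXL, a ratio of 0.107 with a 95% counting interval from 0.00243 to 0.77. These intervals cover counting error only.

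Cytokines of the interleukin-6 family signal through gp130, the product of IL6ST. IL6 was read at 2377 and 2675 normalized counts in siCt and at 2077 and 2109 in siAXL. The libraries did not overlap, and IL6 fell by 0.27 on the log2 scale (SE 0.072, adjusted p = 0.0429). The call was lost without siCt 2 (adjusted p = 0.184), without siAXL 1 (0.146) or without siAXL 2 (0.111). LIF, which keeps stem cells undifferentiated and acts through LIFR and gp130, was at 7226 and 6904 in siCt and at 6281 and 5982 in siAXL. It was lower by a similar small step, with a log2 difference of -0.20 (SE 0.057, adjusted p = 0.0479). Leaving out any 1 library ended the LIF call, with adjusted p = 0.155 without siCt 1, 0.0551 without siCt 2, 0.113 without siAXL 1 and 0.234 without siAXL 2, and edgeR's quasi-likelihood test gave 0.0576.

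CLCF1, a neurotrophic cytokine of this family, had a log2 difference of -0.26 (adjusted p = 0.101). It ran from -0.36 to -0.16 when any 1 library was left out. IL11 went the other way, at 0.20 (adjusted p = 0.115), with both siAXL libraries above both siCt libraries.

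The CXC chemokines with an ELR motif attract neutrophils through CXCR1 and CXCR2, and their genes lie close together on chromosome 4. Of the 5 that were tested, 3 fell (60%, beside 7.91% of all genes tested). They include CXCL5, which passed the filter only through its siCt reads and so had to be lower. CXCL3 was at 361 and 388 normalized counts in siCt and at 143 and 109 in siAXL. Its siAXL mean was 33.6% of the siCt mean, with a log2 difference of -1.58 (SE 0.15, adjusted p = 0.00219). CXCL2 was at 1132 and 1023 in siCt and at 666 and 526 in siAXL. The groups did not overlap and the log2 difference was -0.86 (SE 0.12, adjusted p = 0.00577). CXCL1 stood at 3339 and 2873 in siCt and at 2756 and 2287 in siAXL. The siAXL libraries were again the lower, but the log2 difference of -0.30 (SE 0.11, adjusted p = 0.0921) did not pass the test with all 4 libraries. When any 1 library was left out, the CXCL1 log2 difference ran from -0.44 to -0.17.

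IL8 (CXCL8), the best known chemokine of the set, was at 5906 and 5200 in siCt and at 5430 and 4518 in siAXL, and these ranges overlapped. Its log2 difference was -0.16 (SE 0.10, adjusted p = 0.304), and it ran from -0.29 to -0.029 when any 1 library was left out. CXCL5 was barely expressed, with 11 and 11 reads in siCt and 1 and 3 in siAXL. The siAXL level was 0.175 of the siCt level with a 95% counting interval from 0.0437 to 0.514, and the fitted log2 difference was -2.13 (SE 0.52, adjusted p = 0.0328). That call was lost without siCt 2 (adjusted p = 0.0749) or without siAXL 1 (0.105). CXCL6 had 1 read, in siAXL 2.

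Ratios within a library do not depend on scaling between libraries. CXCL3 had 10.8 and 13.5 reads per 100 reads of CXCL1 in siCt and 5.18 and 4.77 in siAXL. CXCL2 had 33.9 and 35.6 per 100 in siCt and 24.2 and 23.0 in siAXL. Both ratios were thus lower in each siAXL library than in each siCt library. CXCL1, CXCL2 and CXCL3 are close copies, and 4.81%, 12.5% and 6.01% of the 50-base words of their transcripts occur in another of the 3, so a small part of their reads could have been assigned to a neighbour or dropped.

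**Figure D2:**
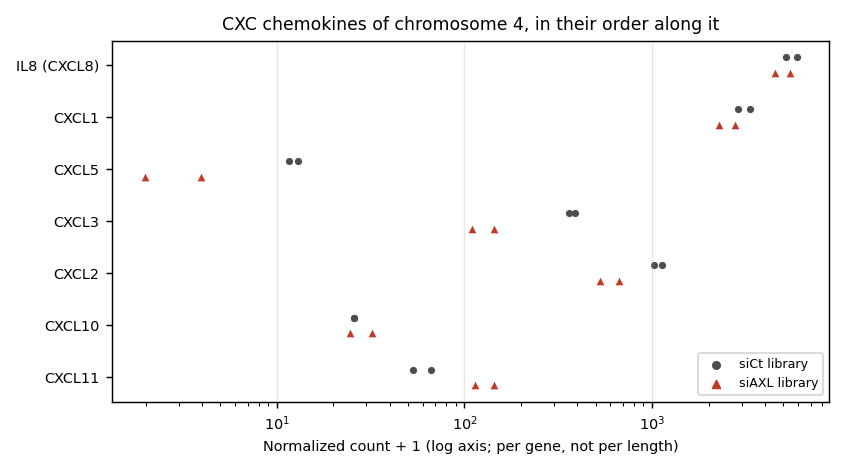
Normalized counts plus 1 (log axis, not divided by gene length) of 7 CXC chemokines in their order along chromosome 4, with 2 siCt libraries as grey circles and 2 siAXL libraries as red triangles for each. CXCL5, CXCL3 and CXCL2 have their triangles to the left of the circles without overlap, IL8 and CXCL10 overlap, and CXCL11 has its triangles to the right, at 113 and 142 against 65.2 and 52.0.

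Further along chromosome 4 lie CXCL10 and CXCL11, ligands of CXCR3 that are known as interferon-induced chemokines. CXCL11 was at 65.2 and 52.0 normalized counts in siCt and at 113 and 142 in siAXL. Its siAXL mean was 2.18 times the siCt mean, the largest rise among the tested members, with a log2 difference of 1.11 (SE 0.20, adjusted p = 0.0121). The call was lost without siAXL 2 (adjusted p = 0.0513). CXCL10 had a log2 difference of 0.12 (adjusted p = 0.804) with overlapping libraries, so CXCL11 had 261 and 209 reads per 100 reads of CXCL10 in siCt and 362 and 604 in siAXL. The CXCL11 3′ UTR holds the word CACATCA, whose carriers had a higher median difference across the table. No source is given here for the choice of this word, so the medians that follow describe these data only. Over all tested genes the median log2 difference was 0.10 with this word and -0.010 without it. Its part in the CXCL11 result was not tested. CXCL11 and CCL20 were the tested members with the word, and CCL20 had a log2 difference of -0.089 (limma adjusted p = 0.843).

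CX3CL1 and CXCL16 are made as membrane-bound chemokines and released by the proteases ADAM10 and ADAM17, and they moved in opposite directions. CX3CL1 was at 260 and 248 normalized counts in siCt and at 349 and 325 in siAXL. The siAXL libraries were the higher, with a log2 difference of 0.41 (SE 0.10, adjusted p = 0.0366). The call was lost without siCt 2 (adjusted p = 0.0868), without siAXL 1 (0.195), without siAXL 2 (0.0938) and with DESeq2 (0.0811). CXCL16, a ligand of CXCR6 and a scavenger receptor, was at 302 and 374 in siCt and at 177 and 246 in siAXL. It was lower without overlap, with a log2 difference of -0.69 (SE 0.18, adjusted p = 0.0404), and lost the call without siAXL 1 (adjusted p = 0.138). CXCL16 overlaps MED11 on the opposite strand over 85 bases of exon, where reads of the pair cannot be told apart because the strand setting of the counting is not given. MED11 had a log2 difference of -0.25 (adjusted p = 0.169). CXCL12 had 0 reads in every library, which allows up to 3 reads in each, and CXCL14 had at most 3.

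Of the CC chemokines, CCL26 was the one called. CCL26, or eotaxin-3, attracts eosinophils and is known as a target of interleukin-4 signalling. It was at 134 and 165 normalized counts in siCt and at 74.8 and 79.6 in siAXL. The siAXL mean was 51.6% of the siCt mean, and the log2 difference was -0.94 (SE 0.16, adjusted p = 0.0113). CCL2, which attracts monocytes, was at -0.068 (adjusted p = 0.824), CCL20, the ligand of CCR6, was at -0.089 (adjusted p = 0.843), and CCL28, a mucosal chemokine, was at -0.056 (adjusted p = 0.737). These 3 had overlapping libraries. CCL5 had 6, 0, 5 and 6 reads in siCt 1, siCt 2, siAXL 1 and siAXL 2, and CCL22 had 1, 1, 1 and 3, so neither was tested.

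Among the remaining cytokines IL32 and MIF rose. IL32, which induces other inflammatory cytokines in myeloid cells, was at 521 and 499 normalized counts in siCt and at 768 and 754 in siAXL. The replicates lay close together and the groups far apart, with a log2 difference of 0.58 (SE 0.079, adjusted p = 0.00524). MIF, a constitutively made inhibitor of macrophage migration that binds CD74, was at 4945 and 4838 in siCt and at 5990 and 6224 in siAXL. It was higher without overlap, with a log2 difference of 0.32 (SE 0.054, adjusted p = 0.0103), and missed the threshold without siAXL 2 (adjusted p = 0.0565). The gene AP000350.4 shares 28.2% of the 50-base words of MIF, and it had 4.33 to 7.86 normalized counts in the 4 libraries.

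IL23A encodes the p19 subunit of interleukin-23. It was at 65.2 and 55.3 normalized counts in siCt and at 28.2 and 36.4 in siAXL. The siAXL mean was 53.6% of the siCt mean, with a log2 difference of -0.89 (SE 0.23, adjusted p = 0.0377). The call was lost without siCt 1 (adjusted p = 0.0783), without siAXL 1 (0.160) or without siAXL 2 (0.0509). EBI3, a subunit of interleukin-27 and interleukin-35, was at 0.33 (adjusted p = 0.517), and IL24, a cytokine of the interleukin-10 family, was at -0.065 (adjusted p = 0.812). IL15, which sustains natural killer cells, was at 0.25 (adjusted p = 0.175) with its siAXL libraries the higher, and IL7, a growth factor of lymphocytes, was at -0.059 (adjusted p = 0.887). IL7 had 29 reads a library on average and overlaps ZC2HC1A on the opposite strand, which had 582. TSLP had 0 reads in every library, and IL16 had at most 3.

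**Figure D3:**
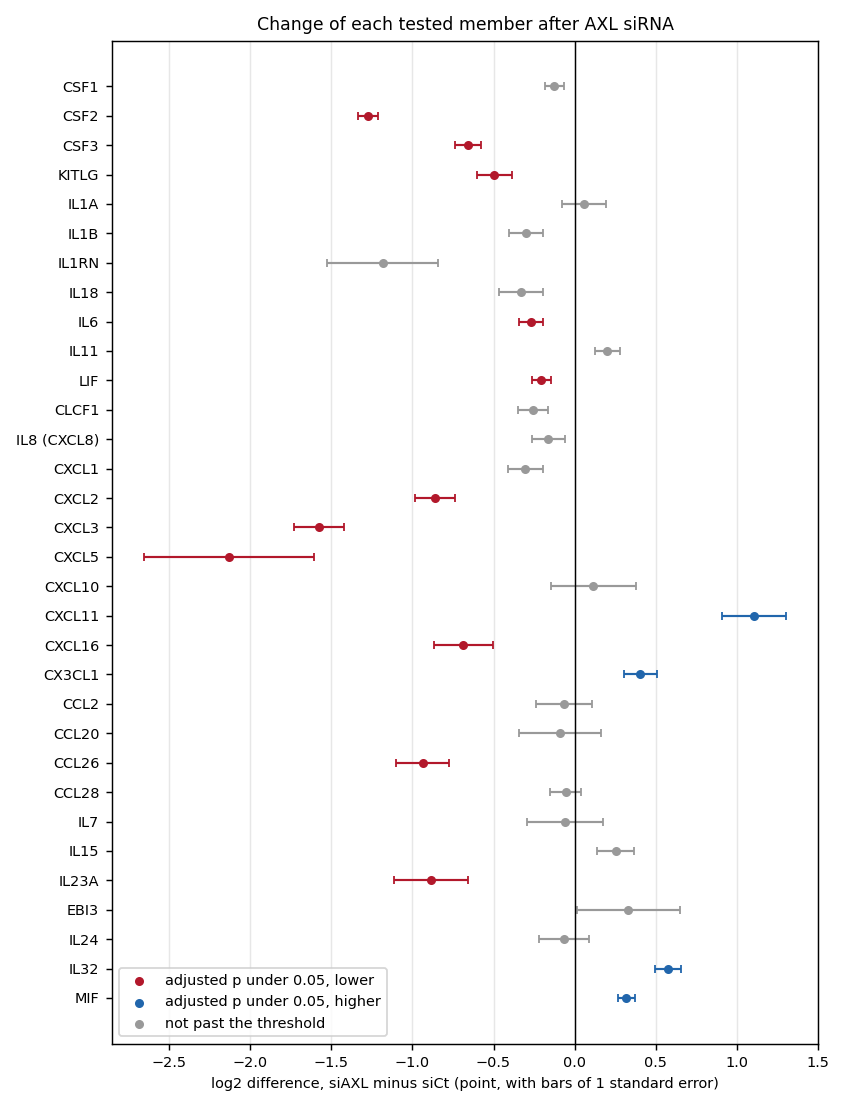
Log2 differences, siAXL minus siCt, of the 32 tested members by role, each as a point with bars of 1 standard error. Red points were called lower and blue points higher at an adjusted p under 0.05, and grey points were not called. The points run from -2.13 for CXCL5 to 1.11 for CXCL11, and the long bars of CXCL5 and IL1RN belong to genes with few reads.

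The promoters were also searched as a whole, over 250 bases before to 50 after the start. Counted by window, the NF-kB consensus was found in 13 of the 38 windows of members (34.2%) and in 5.9% of 35093 promoters. Tested members with a promoter at hand were also counted by gene, with a match in any window. The consensus was found in 5 of 8 that fell, 2 of 3 that rose and 3 of 11 that were not called. The 5 include CXCL5, which passed the filter only through its siCt reads and so had to be lower. CXCL2, CXCL3 and CXCL5 among them share the run of capitals shown above, so they are not separate observations. These counts describe the members, without the same split over all genes beside them. The word GGAATTTCC, which overlaps the consensus, was found in 9 of the 38 windows (23.7%) and in 0.462% of all promoters. The AP-1 word TGANTCA was also found in 9 of the 38 windows, beside 7.71% of all promoters. By gene it was found in 7 of the 22 tested members with a promoter, 1 of which fell and 1 of which rose. Of the called members with a promoter, CSF2, KITLG, CCL26 and MIF had none of these words in the 300 bases searched. Only exact matches were counted, so looser forms of a site would be missed.

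Receptors tell which of these ligands the cells could themselves receive. Of 44 receptor genes 23 were tested, 5 rose (21.7%, beside 10.8% of all genes tested) and 2 fell (8.70%, beside 7.91%), with a median log2 difference of 0.19. IL6ST, the shared gp130 chain, was at 20350 and 20196 normalized counts in siCt and at 26021 and 28484 in siAXL. It was higher by 0.43 (SE 0.063, adjusted p = 0.00685), while IL6, LIF, CLCF1 and IL11, its ligands, ran from -0.27 to 0.20. OSMR, which pairs with gp130 to bind oncostatin M, was higher by 0.24 (adjusted p = 0.0220), but left the called set without any 1 library, with adjusted p from 0.0509 to 0.115. IL27RA, a partner of gp130 for interleukin-27, rose from 183 and 134 to 331 and 367, a log2 difference of 1.15 (adjusted p = 0.00599). IL1RAP, the signalling partner of the interleukin-1 receptor, was higher by 0.47 (adjusted p = 0.00562).

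CSF1R, the receptor of CSF1, was at 330 and 399 normalized counts in siCt and at 213 and 252 in siAXL. It was lower by a log2 difference of -0.65 (adjusted p = 0.0219), and lost the call without siAXL 1 (0.0797). CRLF2, a receptor chain for TSLP, was at -0.53 (adjusted p = 0.0323), and lost the call without siAXL 1 (0.157), without siAXL 2 (0.0675) and with DESeq2 (0.0796). CSF2RA, the ligand-binding chain of the GM-CSF receptor, was at 0.011 (adjusted p = 0.933), and its signalling partner CSF2RB had at most 2 reads. CXCR1, CXCR2 and CX3CR1 had 0 reads in every library. Transcripts of the receptors of the ELR chemokines were therefore not detectable at this depth. Without siAXL 1 the number of receptors called was 3 in place of 7.

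Among 11 genes that process or shed these cytokines 4 rose (36.4%, beside 10.8% of all genes tested) and 0 fell (beside 7.91%), with a median log2 difference of 0.24. edgeR and DESeq2 also called 4 higher and 0 lower, and at an unadjusted p under 0.05 the number lower was 0 with each of the 3 tools. CAPN2, a calpain, a family of which some members cut the interleukin-1 alpha precursor, was at 37133 and 29476 normalized counts in siCt and at 84748 and 83568 in siAXL, a log2 difference of 1.35 (SE 0.11, adjusted p = 0.00145). FURIN, a proprotein convertase, was higher by 0.61 (adjusted p = 0.00210). ADAM17, the sheddase that releases CX3CL1 and other ligands, was higher by 0.35 (adjusted p = 0.00947). ADAM10 was higher by 0.26 (adjusted p = 0.0344), and lost the call without siCt 1 (0.121), siAXL 1 (0.0771) or siAXL 2 (0.149). CASP1, which cuts IL1B and IL18, was at -0.23 (adjusted p = 0.429).

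Of 20 transcription factors known to act on cytokine promoters, 13 were not called. Among the other 7, 2 rose (10% of the 20, beside 10.8% of all genes tested) and 5 fell (25%, beside 7.91%), and the median of the 20 was -0.10. BCL3 and NFKBIZ, nuclear proteins of the IκB family that bind NF-kB at promoters, were lower by log2 differences of -0.43 (adjusted p = 0.0114) and -0.32 (adjusted p = 0.0202). IRF1, an interferon-regulated factor, was at -0.29 (adjusted p = 0.0169) and CEBPB, an activator of the IL6 and CSF3 promoters, at -0.32 (adjusted p = 0.0335). JUNB, an AP-1 subunit, was higher by 0.33 (adjusted p = 0.0166) and RELB, a subunit of NF-kB, by 0.32 (adjusted p = 0.0295). RELA and NFKB1, the subunits of the commonest form of NF-kB, were at 0.0097 (adjusted p = 0.921) and 0.035 (adjusted p = 0.708). Without siAXL 1 the number of factors called was 2 and without siAXL 2 it was 1, that being BCL3, while NFKBIZ lost its call without siAXL 2 (0.0941). IRF1, JUNB, RELB and CEBPB lost theirs without siAXL 1 or without siAXL 2, with adjusted p from 0.0560 to 0.155, and CEBPB also without siCt 2 (0.102).

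Of 16 genes of feedback and mRNA decay 1 rose (6.25%, beside 10.8% of all genes tested) and 2 fell (12.5%, beside 7.91%), shares near those of all genes, with a median of -0.085. The 3 called genes included the related decay factors ZFP36L1 and ZFP36L2, which bind AU-rich elements. ZFP36L1 was at 12301 and 11122 normalized counts in siCt and at 18521 and 18528 in siAXL, higher by a log2 difference of 0.66 (SE 0.064, adjusted p = 0.00219). ZFP36L2 was at 2510 and 2621 in siCt and at 1785 and 1724 in siAXL, lower by -0.55 (SE 0.061, adjusted p = 0.00304). ZFP36 itself, or tristetraprolin, was at 0.043 (adjusted p = 0.762). SOCS3, a feedback inhibitor of gp130 signalling, was lower by -0.35 (adjusted p = 0.0154), and lost the call without siAXL 2 (0.0740). NFKBIA and TNFAIP3, inhibitors that NF-kB itself induces, were at -0.10 (adjusted p = 0.302) and -0.065 (adjusted p = 0.639).

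**Figure D4:**
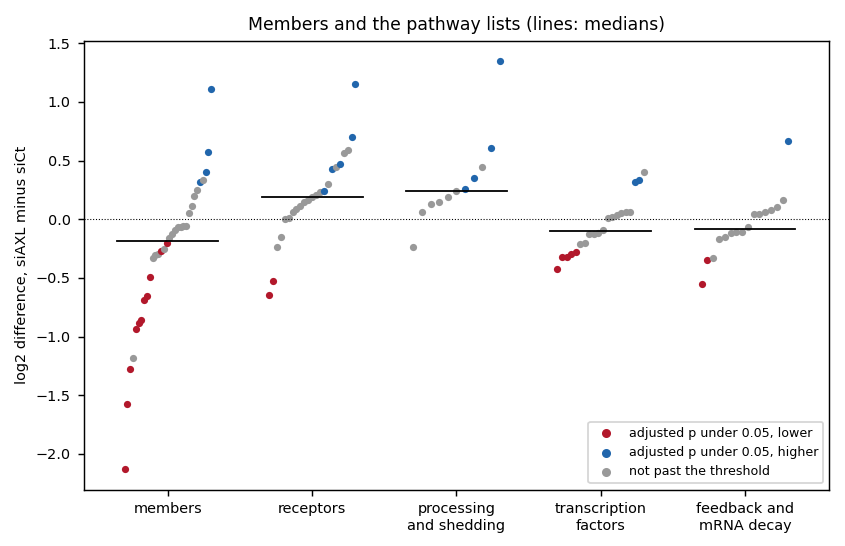
Log2 differences, siAXL minus siCt, of the tested members and of the 4 pathway lists, with 1 point a gene, red where called lower, blue where called higher and grey where not called, and a line at each median. The medians were -0.18 for the members, 0.19 for receptors, 0.24 for processing and shedding, -0.10 for transcription factors and -0.085 for feedback and mRNA decay, and the members spread furthest below 0.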

How the data were processed

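RNA of 2 siCt and 2 siAXL libraries was compared as labelled. The authors deposited 1 table for the series with normalized counts per library, a signal that is the read count of a gene divided by a DESeq2 size factor. The submitters' processing notes name CASAVA 1.8, TopHat2 2.0.10, HTSeq 0.5.3, DESeq2 1.4.5 and GRCh37, while the strand setting and annotation release are not given in the sources used here. The table's columns of mean level, fold change, standard error, test statistic and p-values are the authors' own comparison and were not used.

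In each library 100% of values were whole multiples of 1 read (tolerance 0.01), and reads were recovered by division. Genes passing edgeR's filterByExpr on them were tested with limma 3.58.1 (lmFit, eBayes with trend, R 4.3.3) on log2(normalized count + 1), siAXL minus siCt, with no covariate, after a check on simulated data. Fold changes on this scale understate those of low genes. edgeR 4.0.16 and DESeq2 1.42.0 on the recovered reads, TMM and library-size scaling, pseudocounts of 0.5 and 8, testing every gene with at least 1 read, an adjusted p under 0.01, a replicate block and leaving out each library were alternatives. Counting intervals were exact (Clopper-Pearson, 95%).

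Lengths and 3′ UTRs came from GENCODE 29, which held 82.5% of the table's identifiers, and promoters from RefSeq GRCh38.p14, where CSF1, CSF3, IL34, IL18, LIF, CLCF1, CXCL16, CX3CL1, CCL2, CCL5, IL7 and IL15 were unmatched. All members are given: called members and the 6 highest per kilobase in full, other tested members by log2 difference and adjusted p, untested members by reads. From each list the called genes with the 6 smallest adjusted p are named. CSF2RA, CSF2RB, CXCR1, CXCR2, CX3CR1, CASP1, RELA, NFKB1, ZFP36, NFKBIA, TNFAIP3 and MED11 were added after their values were seen. The members and lists were chosen with earlier results of these data known.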

Additional observations from a re-analysis of the deposited data

How the results depend on the processing

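Under TMM scaling, library-size scaling and pseudocounts of 0.5 and 8, 10 to 12 members were called lower and 4 higher. DESeq2 called 9 lower and 3 higher, and gave no adjusted p for CXCL5 and IL23A, which the main fit had called. Testing every gene with at least 1 read gave 5 members lower and 2 higher, 3 receptors and 1 transcription factor. That fit held 27108 genes and its spread was estimated anew, and the adjusted p of CSF2 went from 5.85e-04 to 0.0250; the cause of the lost calls was not tested. At an adjusted p under 0.01 there were 4 members lower, 1 higher, 3 receptors and 0 transcription factors. Library-size scaling called 5 genes of feedback and mRNA decay. Leaving out each library gave 6 to 11 members lower, 1 to 4 higher, 3 to 7 receptors and 1 to 8 transcription factors.

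The log2 difference of 6 uncalled members changed sign when a library was left out, with ranges of -0.13 to 0.24 for IL1A, -0.077 to 0.31 for CXCL10, -0.17 to 0.033 for CCL2, -0.20 to 0.022 for CCL20, -0.14 to 0.024 for CCL28 and -0.24 to 0.11 for IL24.

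The labels number the libraries 1 and 2 in both groups. Whether libraries of the same number were handled together is not stated. Their deviations from the group means correlated at 0.27 over the genes tested. A replicate block gave 18 members lower and 6 higher, 10 receptors, 7 processing genes, 11 transcription factors and 8 genes of feedback and decay. Members uncalled in the main limma fit were called lower with the block. They were CXCL1 (adjusted p = 1.21e-07), IL1B (1.37e-06), IL18 (5.55e-05), CLCF1 (9.06e-05), IL8 (4.49e-04), CSF1 (6.39e-04) and IL1RN (0.0119). IL11 (0.00731) and IL15 (0.0367) were likewise called higher. The block also raised the calls over all genes from 1735 higher and 1271 lower to 3737 and 3573. With 2 libraries a group, the spread of any single gene is poorly known, and members with few reads, such as CXCL5, IL1RN and IL33, are limited by counting error as well.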
